A study of Mus musculus with 9 samples.

Results

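Epithelial nuclei formed a small part of the nuclei isolated from mouse epididymal adipose tissue (epiAT), the visceral fat pad that lies against the epididymis. A nucleus was counted as epithelial when it held at least 1 UMI (unique molecular identifier, a count of captured RNA molecules) of 4 or more of the 10 genes Epcam, Cdh1, Grhl2, Esrp1, Pax8, Pax2, Abcb5, Adam7, Erbb3 and Crisp1. It could hold UMIs of at most 1 of 6 genes of other tissue cells (Pdgfra, Adgre1, Mctp1, Muc16, Plin4 and Ptprb). The nuclei were thus chosen by measured values of these genes, and the levels of these genes are given below as a description. Of 91687 barcodes, 76356 nuclei lay within the study's quality limits (between 500 and 3000 genes detected, no more than 40000 UMIs). The rule took 520 of these nuclei, or 0.681%.

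The epididymis is a long coiled duct that carries sperm from the efferent ducts of the testis to the vas deferens. Its epithelium holds principal cells, which secrete proteins onto maturing sperm, basal cells, which sit on the basement membrane, and proton-secreting clear and narrow cells. Pax2 and Pax8 are transcription factors of the Wolffian duct, from which this tract develops, and androgens maintain the epithelium. Estrogen receptor 1 (Esr1) is best known in the male tract for its role in fluid uptake in the efferent ducts, where ciliated cells also occur.

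All mice were male C57BL/6J, and each of the 9 libraries held the pooled nuclei of 5 mice of 1 diet group. The chow groups were C, CC and CCC at 18, 26 and 39 weeks of age. H and HH had been fed a high-fat diet (HFD) for 12 and 25 weeks and were 18 and 31 weeks old. HC and HHC had gone back to chow for 8 weeks after 12 and 25 weeks of HFD (weight loss, WL) and were 26 and 39 weeks old. HCH had then received HFD for 4 more weeks after the 12 weeks of HFD and 8 weeks of chow, and CCH had received its only HFD for 4 weeks after chow, both at 30 weeks of age. The labels call the control diet chow, whereas the design text calls it low fat. No diet group had a second library, so libraries of 1 diet state (3 chow, 4 HFD, 2 WL) served as the only repeats, and their spread includes age, length of feeding and pool. C, H, HH, CCH and HCH carried the sequencing set S075, and CC, CCC, HC and HHC the set S019, so diet state and set cannot be fully told apart: both WL libraries were in S019 and all 4 HFD libraries in S075.

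Epithelial nuclei were deeper than the rest, and the rule itself favours deep nuclei because it asks for UMIs of 4 or more genes. Their median depth ran from 3849 UMIs in HCH to 5104 in HH, against 2061 to 3222 UMIs in the other nuclei of the same libraries. Together they held 2361099 of 408905640 UMIs. Of the 520 nuclei, 261 held exactly 4 of the 10 genes and 259 held 5 or more, and 636 further nuclei missed the rule with 3. Another 74 nuclei had 4 or more of the genes but UMIs of 2 of the 6 genes of other cells, and 218 of the 520 had UMIs of 1 of these. Scrublet called 13 epithelial nuclei doublets (2.5%), 10 of them in HC. In HC and CCC the automatic threshold marked under 0.5% of nuclei and was replaced by the expected rate (5.11% and 6.41% marked), so their counts do not compare with those of the other 7 libraries. CC was under 0.5% too, at 0.121%, but kept the automatic threshold because it held fewer than 5000 nuclei. Of the 90625 barcode sequences, 1052 occurred in 2 or more libraries. These included the barcodes of 15 epithelial nuclei, but 0 barcodes were epithelial in 2 libraries.

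The share of epithelial nuclei ranged widely between libraries of the same diet state. In chow it was 1.30% in C (151 nuclei, 95% Clopper-Pearson interval 1.10 to 1.52%), 0.362% in CC (15 nuclei) and 0.520% in CCC (30 nuclei). On HFD it was 0.265% in H (26 nuclei), 0.0375% in HH (5 nuclei, interval 0.0122 to 0.0875%), 0.974% in CCH (71 nuclei) and 0.416% in HCH (41 nuclei). After WL it was 2.80% in HC (151 nuclei, interval 2.38 to 3.28%) and 0.330% in HHC (30 nuclei). HC and C held the most, and the ranges of the diet states overlapped. These intervals cover counting error only. The mean was 0.423% ± 0.399 (SD, n = 4) on HFD and 0.726% ± 0.5002 (SD, n = 3) in chow, with a two-sided exact permutation p of 0.4. The smallest p this design allows is 0.0571. WL averaged 1.57% ± 1.75 (SD, n = 2), with an exact permutation p of 0.8 against chow, where 0.2 is the smallest possible. With 3 or more of the 10 genes the order turned, with 2.03% in WL and 2.27% in chow. Beside the chow library of the same age and sequencing set, HC was higher (2.80% with 0.362% in CC) and HHC lower (0.330% with 0.520% in CCC), and these pairs were not tested. The size of these gaps depends on the number of genes asked for. With 3 or more of the 10 genes the shares were 3.55% in HC and 1.52% in CC, and 0.505% in HHC and 2.39% in CCC. Without HC, the remaining WL library lay below all 3 chow libraries, but not when nuclei were thinned to 1000 UMIs (HHC 0.215%, CC 0.0243%, CCC 0.0645%), when 5 or more genes were asked for (HHC 0.231%, CC 0.0965%, CCC 0.139%) or when no UMI of the 6 genes of other cells was allowed (HHC 0.132%, CC 0.0965%). The share depends on depth: with every nucleus thinned to 1000 UMIs, it fell to 0.510% in HC, 0.321% in C and 0% in HH, after leaving out between 32 shallower nuclei in CC and 1676 in C. Crisp1, a gene of the rule, was also found in endothelial nuclei, as given below. It was in 20.4% of them in HC, 18.0% in CCH, 9.66% in HCH, 9.35% in C and 4.02% in HHC. In the other libraries it was in at most 0.685%. The part of this background in the shares was not tested.

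**Figure D1:**
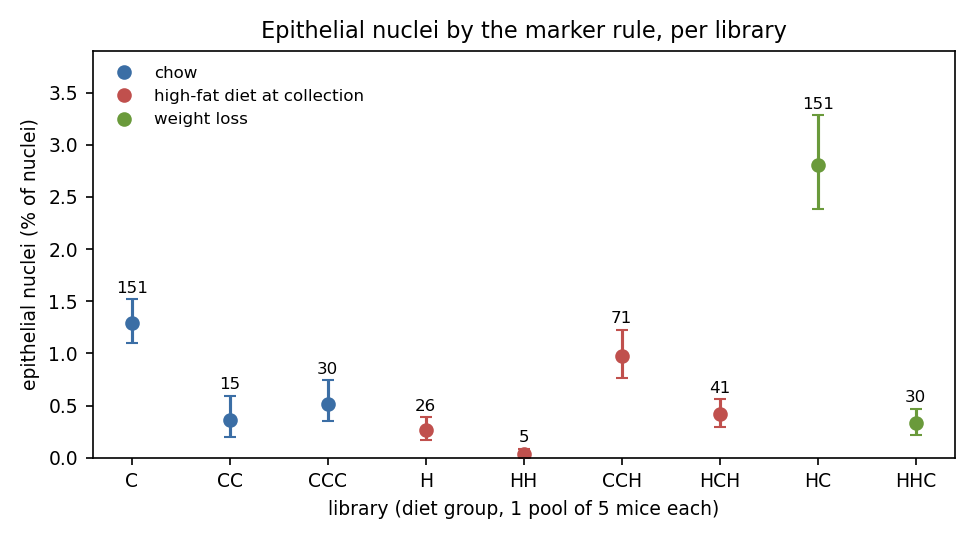
Share of nuclei in each library that met the epithelial marker rule (%, y axis) for the 9 libraries (x axis), with 95% Clopper-Pearson intervals and the number of nuclei above each point. HC lies highest at 2.80% and HH lowest at 0.0375%, and the colours of the diet states overlap.

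The genes of the rule differed in how broadly they marked these nuclei. Pax8 was detected in 80.0% of epithelial nuclei in HH to 100% in CC, and Pax2 in 61.5% in H to 100% in HH. E-cadherin (Cdh1), the adhesion protein of epithelial junctions, was found in 43.7% (CCH) to 84.6% (H), and Epcam, another epithelial adhesion protein, in 11.3% (HC) to 66.7% (CCC). Genes of the epididymis proper were restricted to some libraries. Crisp1, which encodes a secreted protein that coats sperm, was detected in 88.1% of epithelial nuclei in HC, 70.4% in CCH, 68.9% in C, 66.7% in HHC and 36.6% in HCH, but in 13.3% in CC, 6.67% in CCC and 0% in H and HH. Adam7, a sperm-associated membrane protein of the epididymis, reached 70.0% in HHC and at most 20% elsewhere, and Abcb5, a membrane transporter, reached 73.3% in HHC, 17.1% in HCH and at most 7.04% in the other libraries. Since these genes of the epididymis were near or at 0 in some libraries, the members are called epithelial nuclei here.

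Crisp1 UMIs were also found in nuclei of other kinds, and their source was not tested. In endothelial nuclei, a class that should lack the gene, at least 1 UMI of Crisp1 was found in 20.4% of 186 nuclei in HC, 18.0% of 495 in CCH, 9.66% of 414 in HCH, 9.35% of 738 in C and 4.02% of 199 in HHC. It was found in 0% to 0.685% in the other 4 libraries. Endothelial nuclei were shallower, with median depths between 1769 and 2780 UMIs. Crisp1 is a gene of the rule and the epithelial nuclei were deeper, so the higher shares in them are no measure of expression above this background. CCC epithelial nuclei had it in 6.67% (2 of 30 nuclei). The endothelial class was limited to nuclei with UMIs of at most 1 of the 10 rule genes. Its shares are capped by that choice and can understate the background. Within this class Pax8 was found in at most 9.76%, Pax2 in at most 4.30% and each remaining rule gene in at most 3.52%.

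**Figure D2:**
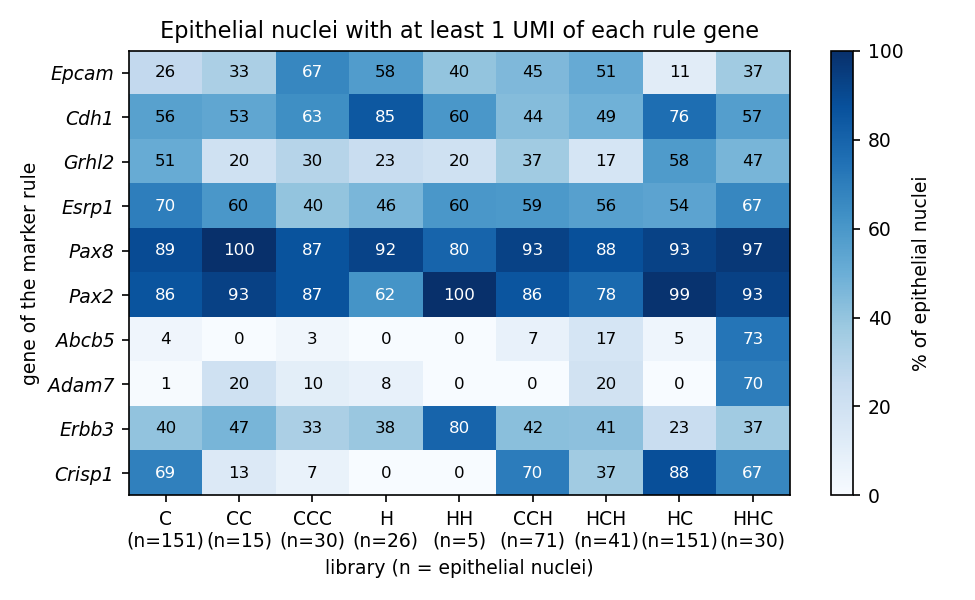
Percent of epithelial nuclei with at least 1 UMI of each gene of the marker rule (rows) in each library (columns, with the number of epithelial nuclei). Pax8 and Pax2 are high in every column, Crisp1 is high in C, CCH, HC and HHC, and Adam7 and Abcb5 are high in HHC alone.

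Genes outside the rule also set these nuclei apart, as a description of how the rule worked. Levels are given in CPM, the summed UMIs of a gene scaled to a common total that leaves out mitochondrial genes and Malat1. Reads from introns were counted, so long genes collect more UMIs, and levels are compared between groups of nuclei for 1 gene, not between genes. The 20 protein-coding genes that most exceeded the other nuclei of the same library in the library where they exceeded them least were led by Kcnj16, an inward-rectifier potassium channel, at 7.26-fold in its lowest library. The pentaspan membrane protein Prom1 reached 117 to 1027 CPM in epithelial nuclei against 7.73 to 114 CPM in other nuclei of the same libraries, and the cytoskeletal adaptor Ank3 1874 to 8848 CPM against 35.9 to 578 CPM. The ubiquitin ligase Rnf43, which restrains Wnt receptors, had 178 to 591 CPM, and Patj, a tight-junction scaffold, had 274 to 933 CPM. Patj was also present at 173 CPM in the mesothelial class, against 27.9 to 31.7 CPM in the macrophage, progenitor, adipocyte and endothelial classes. The 21 genes of a list of junction proteins and keratins summed to 519 to 950 CPM in epithelial nuclei and 61.0 to 210 CPM in the rest.

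Clustering divided the 520 nuclei into 7 clusters, and most clusters belonged to few libraries. The clusters held 149, 116, 115, 51, 34, 29 and 26 nuclei. Because each diet group had 1 library, a cluster found mainly in 1 library cannot be told apart from that library. A cluster counted a marker when at least 10% of its nuclei held the gene and its level was at least 2-fold that of the other epithelial nuclei. A name was given only where 3 or more markers of a cell type were counted and the leading genes did not go against it. That held for cluster 6 (principal-like) and cluster 7 (basal-like). Clusters 4 and 5 counted 6 and 5 of 9 macrophage markers, of which 2 (Cd74 and C1qb) and 0 were among their 10 leading protein-coding genes. The leading genes of cluster 4 were mixed and those of cluster 5 were of cilia, so neither took that name. Clusters 1 to 5 are called by their leading genes. The genes that define a cluster are given as a description.

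**Figure D3:**
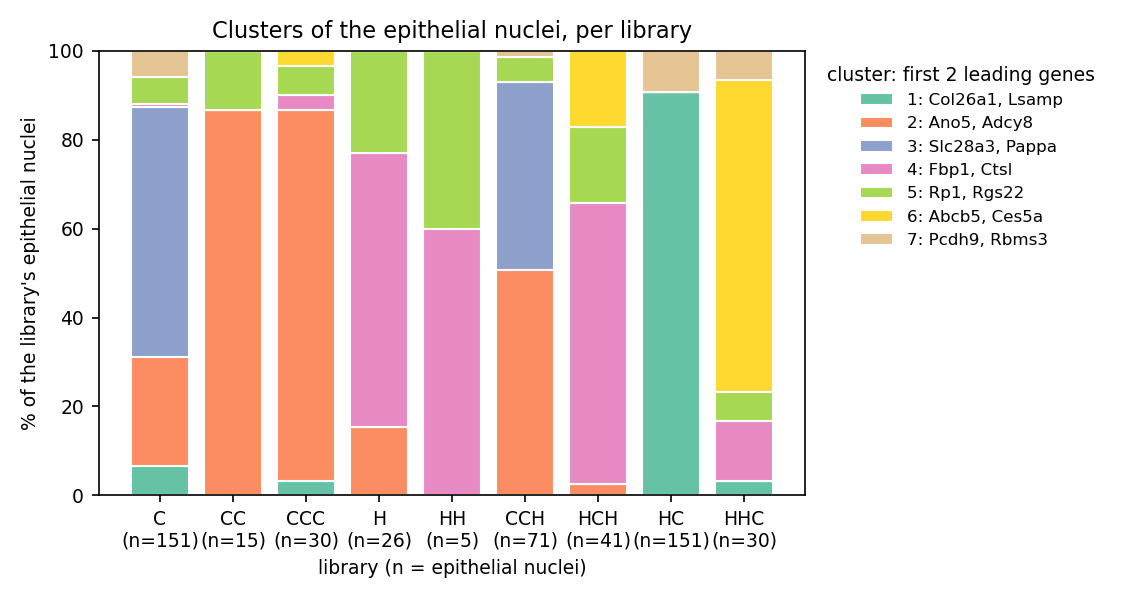
Percent of each library's epithelial nuclei (y axis) in clusters 1 to 7, for the 9 libraries (x axis, with the number of epithelial nuclei). Cluster 1 makes up 90.7% of HC, cluster 6 makes up 70.0% of HHC, and clusters 2 and 4 together make up over 50% of CC, CCC, H, HH, CCH and HCH.

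Clusters 2 and 4 shared a high level of Esr1, at 4475 and 4788 CPM, compared with 1619 CPM in cluster 5 and 17.9 to 69.8 CPM in clusters 1, 3, 6 and 7. These Esr1-rich nuclei carried a set of ion transport genes. The bicarbonate cotransporter Slc4a4 stood at 1071 and 1229 CPM in clusters 2 and 4, the chloride and bicarbonate channel Cftr at 540 and 659 CPM, and the sodium-proton exchanger Slc9a3 at 358 and 406 CPM. The sodium-potassium-chloride cotransporter Slc12a2 was at 573 and 670 CPM, and the proton pump subunit Atp6v0a4 at 421 and 527 CPM. In clusters 1 and 3, Cftr did not exceed 1.90 CPM and Slc9a3 did not exceed 3.10 CPM. Greb1, a known target of the estrogen receptor, was at 823 and 670 CPM, and Adgrg2, an adhesion receptor of the male tract, was among the leading genes of cluster 2, at 3419 CPM in 100% of its nuclei. Of the 10 fixed clear or narrow cell markers, 2 (Atp6v0a4 and Car2) were counted in cluster 2 and the same 2 in cluster 4. Foxi1, Atp6v1b1, Atp6v1g3 and Rhcg were at 0 in both clusters. A name asked for 3 or more markers, and neither cluster took one.

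Esr1-rich nuclei were present in 8 of 9 libraries. They made up 86.7% of epithelial nuclei in CC (13 of 15) and CCC (26 of 30), 76.9% in H (20 of 26), 65.9% in HCH (27 of 41), 60% in HH (3 of 5), 50.7% in CCH (36 of 71), 25.2% in C (38 of 151) and 13.3% in HHC (4 of 30). HC had 0 of 151, which allows a share of up to 1.99%. The division into cluster 2 and cluster 4 followed the libraries. Cluster 2 held 37 nuclei of C, 36 of CCH, 25 of CCC, 13 of CC, 4 of H and 1 of HCH, and cluster 4 held 26 of HCH, 16 of H, 4 of HHC, 3 of HH and 1 each of C and CCC. Cluster 4 was led by genes of 2 kinds. Fbp1, Dao, Slc7a9 and Slc26a3 encode enzymes and transporters of epithelia such as that of the kidney, and Srd5a2 encodes the reductase that makes dihydrotestosterone from testosterone. Cd74, C1qb and Ctsl are abundant in macrophages, and Col1a1 and Col3a1 in fibroblasts. Cluster 4 is therefore given by its number, and its values and those of cluster 2 stand side by side without a comparison of diets.

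Within cluster 2, Esr1 stood at 4923, 3967 and 3458 CPM in C, CC and CCC and at 4860 CPM in CCH, the 1 library of this cluster on HFD with at least 10 nuclei. Cftr was at 652, 412 and 406 CPM in the chow libraries and at 571 CPM in CCH, and Slc4a4 at 1351, 786 and 912 CPM in chow and at 1021 CPM in CCH. For these 3 genes CCH lay within the range of the chow libraries. Slc26a3, a chloride-bicarbonate exchanger, was at 95.1 CPM in C (95% Poisson interval 52.0 to 160), 118 CPM in CC (43.2 to 257) and 101 CPM in CCC (46.4 to 192), and at 210 CPM in CCH (147 to 292). CCH was above the chow libraries, with an interval that overlapped theirs. In cluster 4, Esr1 was at 5104 CPM in H and 4159 CPM in HCH, Cftr at 811 and 605 CPM, and Slc4a4 at 1166 and 1574 CPM. Slc26a3 and Srd5a2 were singled out after their values were seen. These nuclei were clustered on the same counts, so no test was made.

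Genes of macrophages were among those that divided cluster 4 from cluster 2, and they are given as a description. Gpnmb, a glycoprotein of lipid-laden macrophages, was at 845 CPM in the cluster 4 nuclei of H and 219 CPM in those of HCH, and had 0 UMIs in the cluster 2 nuclei of C, CC, CCC and CCH. Cd74, the invariant chain of MHC class II, was at 604.5 CPM in HCH and 220 CPM in H in cluster 4, and at 19.6 to 96.1 CPM in cluster 2. The same libraries differed in their other nuclei, where Gpnmb reached 1902 CPM in H and 635.5 CPM in HCH against 13.03 to 67.2 CPM in C, CC, CCC and CCH. The part of macrophage RNA in these values was not tested.

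**Figure D4:**
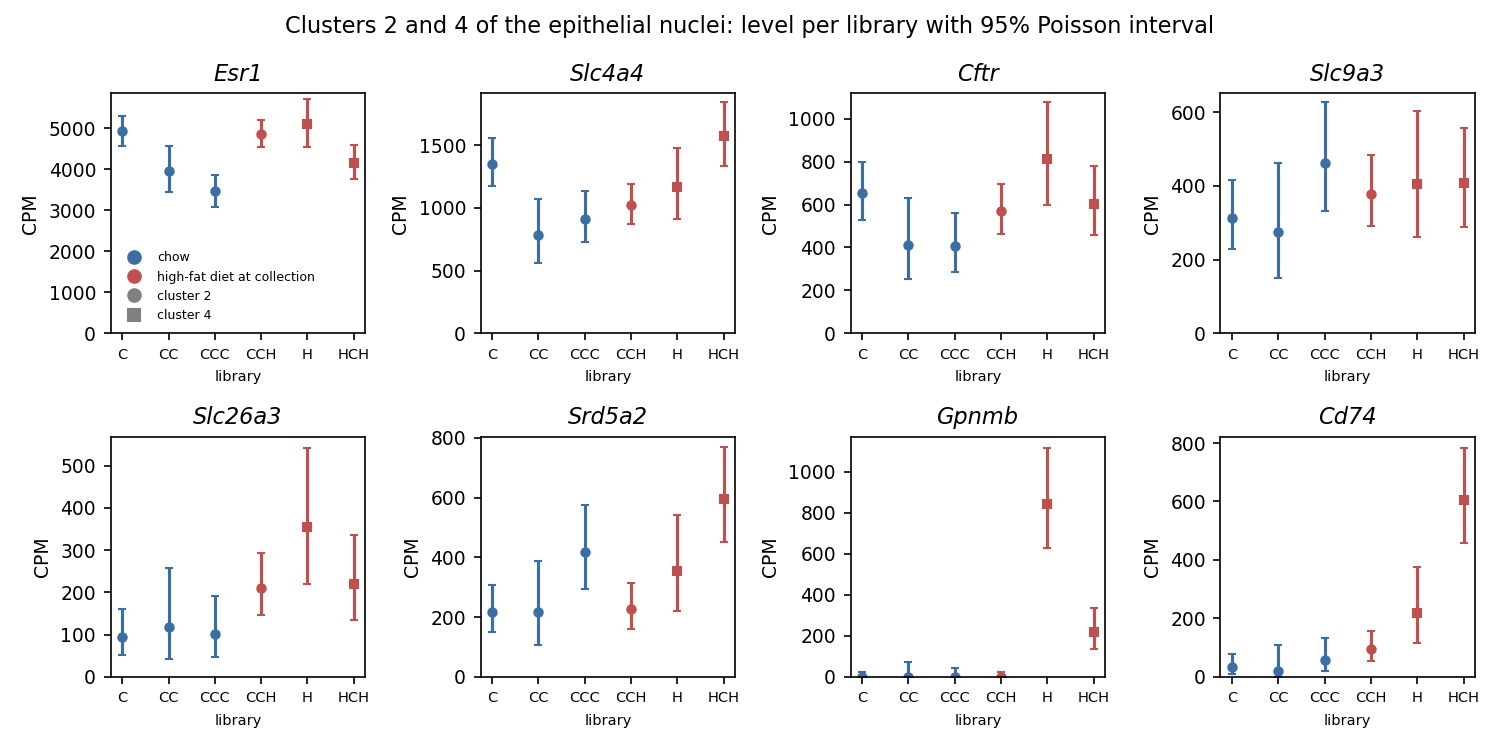
Level (CPM, y axes) of 8 genes in cluster 2 (circles, libraries C, CC, CCC and CCH) and cluster 4 (squares, libraries H and HCH), for libraries with at least 10 nuclei in the cluster (x axes), with 95% Poisson intervals for counting error. Within cluster 2, Esr1, Slc4a4 and Cftr of CCH lie within the range of the chow libraries, and Gpnmb is above 0 only in the cluster 4 libraries.

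Clusters 1 and 3 shared the zinc-finger transcription factor Gata3 (944 and 1809 CPM, against 2.10 CPM in cluster 2), Pax2 (1267 and 950 CPM), Pax8 (1287 and 1408 CPM), Crisp1 (1203 and 2137 CPM) and Kcnj16 (885 and 1385 CPM). Pax2, Pax8 and Crisp1 were not particular to them and stood at 966, 1001 and 3201 CPM in cluster 6. Kcnj16 was not particular to them either, at 828 CPM in the cluster 4 nuclei of H and 511 CPM in those of HCH. Clusters 1 and 3 came from different libraries. Cluster 3 held 85 nuclei of C and 30 of CCH. Its leading genes were the nucleoside transporter Slc28a3 (1423 CPM), the growth factor protease Pappa (1119 CPM), the urea transporter Slc14a2 (4958 CPM), the phosphodiesterase Pde10a (6584 CPM) and prostaglandin synthase Ptgs2 (1835 CPM). Hpgd, which degrades prostaglandins, was also among them at 2842 CPM. With only Crisp1 and Spink8 of the 18 principal-cell markers, it was left unnamed.

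Cluster 3 differed between its own libraries by more than counting error. Slc28a3 was at 625 CPM in C (95% Poisson interval 548 to 711) and 3386 CPM in CCH (3100 to 3691). Spink8, a secreted protease inhibitor, was at 342 CPM in C (285 to 407) and 979.6 CPM in CCH (829 to 1150). The reverse order held for Slc14a2, at 6030 CPM in C and 2321 CPM in CCH, and for Pde10a, at 8178 CPM in C and 2663 CPM in CCH. Gata3 differed little, at 1860 CPM (1724 to 2003) in C and 1683 CPM (1483 to 1902) in CCH. With 1 library each, diet, age (18 and 30 weeks), the stretch of duct taken with the fat pad and the library cannot be told apart.

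Cluster 1 came from HC with 137 of its 149 nuclei, and from C with 10. It was led by Mgll, which encodes monoacylglycerol lipase (5984 CPM), Wdr25 (3299 CPM), the kinase scaffold Ksr2 (3051 CPM), the potassium channel subunit Dpp6 (2270 CPM), Col26a1 (538 CPM) and prostaglandin E synthase Ptges (864 CPM). None of the 18 principal-cell markers was 2-fold above the other clusters. Some of its leading genes moved with the sequencing set in all nuclei. Camk1d, Cmss1 and the ribosomal-repeat gene Gm42418 were at 1913, 2852 and 42720 CPM in HC epithelial nuclei and at 2939, 3719 and 54450 CPM in the other HC nuclei. In the other nuclei of CC, CCC and HHC, Gm42418 reached 68710, 27830 and 14310 CPM, compared with 1416 to 3114 CPM in the 5 libraries of set S075. Mgll was also higher in the other nuclei of S019 (350 to 774 CPM) than in those of S075 (92.3 to 349 CPM), but it was at 5806 CPM in HC epithelial nuclei and at 217 and 94.6 CPM in those of CC and CCC, the chow libraries of the same set. Wdr25 was at 3211 CPM in HC epithelial nuclei, 66.7 CPM in those of CC and 17.3 to 90.0 CPM in the other nuclei of all 9 libraries. The 10 nuclei of C in this cluster had Mgll at 1675 CPM (95% Poisson interval 1235 to 2220) and Wdr25 at 593 CPM (346 to 950), below the HC nuclei at 6229 and 3453 CPM.

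Cluster 5 was present in every library except HC and was led by genes of the motile cilium. It held 9 nuclei of C, 7 of HCH, 6 of H, 4 of CCH and 2 each of CC, CCC, HH and HHC, and 0 of 151 in HC, which allows up to 1.99%. Dynein heavy chains drive ciliary beating, and Dnah12 was at 2873 CPM, Dnah9 at 1555 CPM and Dnah6 at 1317 CPM, against 29.95, 3.44 and 1.96 CPM in the other epithelial nuclei. Rp1, a microtubule protein of the axoneme, was at 1851 CPM in 97.1% of the nuclei, and the central-pair gene Hydin at 1517 CPM in 100%. Epcam was at its highest here, in 70.6% of nuclei, and Esr1 was at 1619 CPM. Of the principal, basal and sperm markers, 0 were counted in this cluster. The sperm genes Prm1 and Odf1 stood at 6.43 CPM each, and Prm2, Tnp1, Tnp2, Akap4 and Smcp at 0. Its 34 nuclei stayed together at all 3 clustering resolutions.

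RFX transcription factors, which act on ciliary genes, bind a promoter motif called the X-box, and it was searched for in the promoters of these cilium genes. RefSeq promoter windows (GRCm38.p6, 250 bases before to 50 after the start) were found for 11 of the 20 leading genes of cluster 5. The half-site GTTGCC on either strand occurred in windows of 4 of the 11 genes, and in 14.1% of 27025 genes with a window. A spaced form, GTNNCC and GNNAC with any 3 bases between them, on either strand, which can overlap the half-site, occurred in 3 of the 11, against 5.26% of all genes. Among the leading genes of the other 6 clusters, of which 12 to 16 a cluster had a window, it occurred in 0 to 2. Members of the cluster were picked by their counts, so this is a description with no test. A match describes letters, not a bound site. The 3 windows with the spaced form are shown because they carry the pattern. They lie on the plus strand at chr1:69826720-69827019 (Spag16), chr2:145934534-145934833 (Cfap61) and chr8:110266727-110267026 (Hydin), with matches in capitals that begin 103, 8 and 21 bases before the start.
Spag16: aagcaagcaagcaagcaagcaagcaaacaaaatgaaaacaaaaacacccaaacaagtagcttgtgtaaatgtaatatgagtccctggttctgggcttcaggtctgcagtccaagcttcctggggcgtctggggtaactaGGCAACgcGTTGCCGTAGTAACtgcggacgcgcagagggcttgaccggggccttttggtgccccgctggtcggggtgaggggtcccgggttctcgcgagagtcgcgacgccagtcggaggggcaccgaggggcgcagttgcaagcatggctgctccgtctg
Cfap61: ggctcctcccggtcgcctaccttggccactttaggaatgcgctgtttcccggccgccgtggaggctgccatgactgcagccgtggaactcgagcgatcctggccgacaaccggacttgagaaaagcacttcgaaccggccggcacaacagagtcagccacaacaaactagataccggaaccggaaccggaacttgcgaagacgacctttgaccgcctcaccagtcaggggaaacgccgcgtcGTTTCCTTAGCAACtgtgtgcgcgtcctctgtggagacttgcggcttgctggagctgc
Hydin: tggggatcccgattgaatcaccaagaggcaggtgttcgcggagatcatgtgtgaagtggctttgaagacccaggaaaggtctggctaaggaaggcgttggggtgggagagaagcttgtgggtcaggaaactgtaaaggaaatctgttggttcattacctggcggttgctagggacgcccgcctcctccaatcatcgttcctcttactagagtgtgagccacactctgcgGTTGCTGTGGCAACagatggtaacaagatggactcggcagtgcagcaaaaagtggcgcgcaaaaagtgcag
In the sequence of Spag16, a second half-site in the opposite direction stands just before the spaced form. Spag16, a central-apparatus gene, was at 1446 CPM in cluster 5, and Cfap61, a radial-spoke gene, at 1562 CPM.

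The principal-like cluster 6 held 21 nuclei of HHC, 7 of HCH and 1 of CCC. It had 8 of 18 principal-cell markers, of which Crisp1, Adam7 and Abcb5 belong to the rule. Outside the rule, Ces5a, a carboxylesterase secreted by the epididymis, was at 2271 CPM in 100% of nuclei and 4.81 CPM in other epithelial nuclei. Crisp4, a relative of Crisp1, was at 510 CPM, Spink8 at 1010 CPM, the water and glycerol channel Aqp9 at 259 CPM and Rnase9 at 170 CPM. Further secreted proteins of the tract, Pate1 (787 CPM), Pate2 (832 CPM), Spink13 (778 CPM) and the defensin Defb22 (492 CPM), were among the 20 leading genes. These values pool the libraries. In the HHC nuclei of the cluster, Crisp1 (1531 CPM), Spink8 (429 CPM) and Rnase9 (36.75 CPM, 3 UMIs) were lower. Pate1 (429 CPM), Pate2 (564 CPM) and Defb22 (147 CPM) were lower there too. Ces5a (2095 CPM), Crisp4 (502 CPM), Aqp9 (269.5 CPM) and Spink13 (796 CPM) were close to the pooled values. The remaining principal-cell markers were not counted, and among them the lipocalin genes Lcn5, Lcn8 and Lcn9 had 0 UMIs in this cluster. In its 21 nuclei of HHC, Adam28, Lcn6, Lcn10, Cst8, Cst11, Gpx5 and Rnase10 also had 0 UMIs. Gata3 was at 62.6 CPM and Esr1 at 17.9 CPM. The cluster also carried 8 of 9 macrophage markers at low levels, between 35.8 CPM for Tyrobp and 402 CPM for Lyz2 among those 8, with 0 of them and 2 principal markers among its 10 leading genes. Its nuclei held a median of 8 rule genes and 4272 UMIs. The part of macrophage RNA in this cluster was not tested. It also counted 3 of 10 clear or narrow cell markers (Atp6v1c2 at 313 CPM, Atp6v0d2 and Car2 at 62.6 CPM each), with 0 among its 10 leading genes, while Foxi1, Atp6v1b1 and Rhcg were at 0.

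The basal-like cluster 7 held 14 nuclei of HC, 9 of C, 2 of HHC and 1 of CCH. It was marked by Trp63, the transcription factor of basal epithelial cells, at 1984 CPM in 92.3% of nuclei and 70.9 CPM in other epithelial nuclei. The integrin Itgb4 (285 CPM) and the laminin subunit Lamb3 (98.6 CPM) belong to the anchoring complex at the basement membrane, and Itgb6 (164 CPM) and Cldn1 (54.8 CPM) completed the 5 markers. The basal keratins Krt5 and Krt14 were at 10.96 and 21.9 CPM, and Krt15 and Krt17 at 0. Its leading genes were the protocadherin Pcdh9 (2269 CPM), Rbms3 (5359 CPM), the neurotrophin receptor Ntrk3 (899 CPM) and Nxn (1973 CPM). Gata3 was at 515 CPM.

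**Figure D5:**
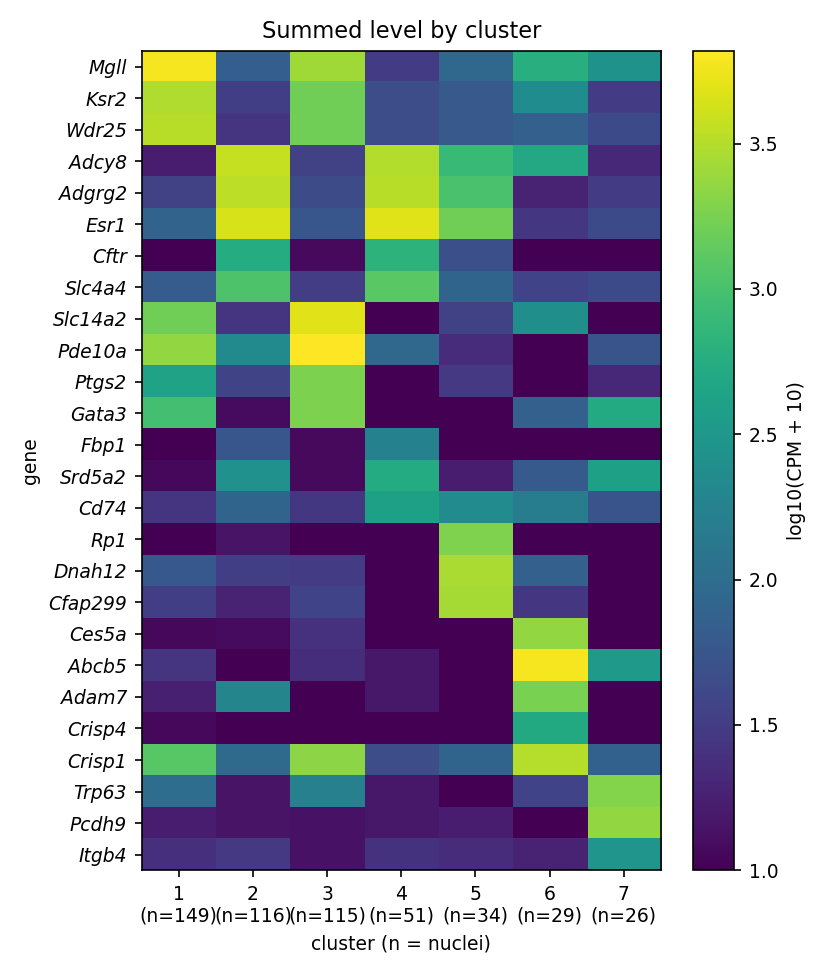
Summed level of 26 genes (rows) in the 7 clusters (columns, with the number of nuclei), as log10(CPM + 10). Esr1, Adgrg2, Cftr and Slc4a4 are bright in clusters 2 and 4, Rp1, Dnah12 and Cfap299 in cluster 5, Ces5a, Abcb5 and Adam7 in cluster 6, and Trp63 and Itgb4 in cluster 7.

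To ask whether diet changed expression in epithelial nuclei as a whole, UMIs were summed per library and libraries of 1 diet state were compared. CC and HH were left out for holding fewer than 20 epithelial nuclei. The 7 libraries left differed in their clusters, as given above, and that makeup was not separated from diet. No gene passed an adjusted p of 0.05 in edgeR's quasi-likelihood test, with 0 of 4896 genes called (0%) in HFD against chow and 0 of 4896 (0%) in WL against chow. At an unadjusted p under 0.05 there were 91 of 4896 genes for HFD and 343 of 4896 for WL. DESeq2 called 0 and 29 genes. A gene list is described by how many of its members passed the filter and their median log2 fold change. The filter on low counts keeps a gene with enough UMIs in part of the libraries. A gene near 0 in chow thus passes only through libraries where it is high, which can raise the median. The medians are therefore descriptions. For HFD, 10 of 12 macrophage genes were tested with 0 called and a median of 3.17, beside -0.02 over all genes, and 4 of 7 MHC class II genes had a median of 2.81. For WL, 11 of 20 ion and water transport genes were tested with 0 called and a median of -0.92, beside 0.05 over all genes, and 9 of 12 steroid signalling genes had a median of -0.76. The macrophage genes had a median of 3.21 in WL too, with 5 of 10 at an unadjusted p under 0.05 (6 of 10 for HFD). Other lists reached that threshold too, among them 5 of 11 ion and water transport genes for WL, 3 of 4 MHC class II genes for HFD and 3 of 13 lysosome genes in each comparison. The 7 tested of 30 secretory genes of principal cells had a median of 2.78 in WL and 1.34 for HFD. Their list summed to 318 and 643 CPM in C and CCC, 298 CPM in HC and 2737 CPM in HHC. HC thus lay close to C, and only HHC lay above the chow libraries. CC, left out of the fit, was at 150 CPM (9 UMIs). On HFD the list summed to 418, 602 and 1551 CPM in H, CCH and HCH. In both comparisons 0 genes of each list were called.

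Individual members show what lay behind these medians. Slc4a4 was at 354 CPM in C, 776 CPM in CCC, 41.0 CPM in HC and 69.1 CPM in HHC, and the WL libraries lay below both chow libraries. Its log2 fold change in WL was -3.18 ± 0.59 (SE), with an adjusted p of 0.565 in edgeR and 0.00911 in DESeq2. Esr1 was at 1468, 3633 and 3046 CPM in C, CC and CCC, at 4322, 4754, 2424 and 2727 CPM in H, HH, CCH and HCH, and at 47.1 and 527 CPM in HC and HHC. HC and HHC had the lowest shares of Esr1-rich nuclei, 0% and 13.3%. Those nuclei were defined by clusters with at least 3000 CPM of Esr1, so the share is not independent of the level. Atp6v0a4 and Slc12a2 had log2 fold changes of -3.78 ± 0.91 (SE) and -2.60 ± 0.71 (SE) in WL, each with an adjusted p of 0.565 in edgeR. Both moved with single libraries: Atp6v0a4 was at -2.71 without CCC, -4.43 without C, -2.73 without HC and -4.85 without HHC, and Slc12a2 at -2.001, -3.10, -1.90 and -3.48. DESeq2 gave Atp6v0a4 an adjusted p of 0.0430. Ctsb, a lysosomal protease, had a log2 fold change of 3.14 ± 0.89 (SE) in WL, with an adjusted p of 0.565 in edgeR. Its fold change was 3.55 without HC and 2.45 without HHC. It was at 58.5 and 66.2 CPM in C and CCC and at 270.5 and 725 CPM in HC and HHC, and in the other nuclei of these libraries at 149, 219, 587 and 1690 CPM. Ppard, a nuclear receptor of lipid metabolism, had a log2 fold change of -1.56 ± 0.44 (SE) on HFD, with an adjusted p of 0.9999 in edgeR. On HFD, Lyz2, a lysozyme of macrophages, had a log2 fold change of 5.44 ± 1.54 (SE) with an adjusted p of 0.9999 in the same edgeR test. Its adjusted p was 2.655e-06 in edgeR without the filter on low counts and 0.0831 in DESeq2. It was at 4.75 and 9.46 CPM in C and CCC (3 UMIs and 1 UMI) and at 326, 41.1 and 494 CPM in H, CCH and HCH. In the other nuclei of these libraries Lyz2 was higher still, at 25.9 and 71.3 CPM in C and CCC and at 969, 115 and 728 CPM in H, CCH and HCH. The 12 macrophage genes summed to 132 to 183 CPM in chow epithelial nuclei, 232 CPM in CCH, 1947 to 2177 CPM in H, HH and HCH, 699 CPM in HC and 2106 CPM in HHC. In every library the sum was lower than in the other nuclei, where it was 813 to 1223 CPM in chow, 1995 to 7472 CPM on HFD and 2731 and 6910 CPM in HC and HHC. The part of macrophage RNA in these differences was not tested.

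Single pairs of libraries differed in many genes, as descriptions without a test. The share of genes whose whole 95% interval of the CPM ratio lay past 2-fold, among genes with at least 20 UMIs in the pair, was 7.8% for H with C (500 of 6413), 5.48% for HH with CC, 4.21% for HH with C, 8.03% for HC with CC and 6.18% for HCH with CCH (327 of 5291). For HHC with CCC it was highest, at 11.9% (342 of 2863). HH had 5 epithelial nuclei and CC had 15. In HHC with CCC, the log2 ratio was 8.81 for Abcb5 (interval 6.32 to 14.11, with 1 UMI in CCC), 4.04 for Adam7 (3.02 to 5.28), 4.29 for Ces5a (3.28 to 5.52) and 2.51 for Crisp1 (1.82 to 3.27). It was -2.53 for Esr1 (-2.95 to -2.13) and -3.49 for Slc4a4 (-4.75 to -2.44). In HC with CC, it was -6.27 for Esr1 (-6.86 to -5.72) and 4.53 for Crisp1 (2.98 to 6.82, with 3 UMIs in CC). In HCH with CCH, Esr1 differed by 0.17 (-0.00068 to 0.34), whereas Gata3 differed by -5.93 (-8.98 to -4.06, with 2 UMIs in HCH). In H with C, Esr1 was higher by 1.56 (1.39 to 1.73) and Epcam by 2.10 (1.36 to 2.83), and Mgll differed by -7.42 (-12.7 to -4.94, with 1 UMI in H). These pairs also differed in which clusters they held. Abcb5, Adam7, Crisp1 and Epcam belong to the rule that chose the nuclei, so their ratios depend on that choice and are descriptions only. Crisp1 UMIs were found in 20.4% of endothelial nuclei in HC and 0% in CC.

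The 16 lysosome genes summed to 1052 to 1145 CPM in chow, 4495, 3840, 1280 and 3816 CPM in H, HH, CCH and HCH, and 1650 and 4446 CPM in HC and HHC. In every library the sum was higher in the other nuclei (1361 to 9551 CPM). Of these genes 13 were tested and 0 called, with a median log2 fold change of 1.504 for HFD and 0.98 for WL. The 14 tested of 24 lipid handling genes had medians of -0.05 and -0.24, and their sum was 2037 to 3583 CPM. The 11 tested of 17 oxidative defence genes had medians of 0.19 and 0.43 (709.6 to 1691 CPM), and the 6 tested of 12 genes of endoplasmic reticulum stress had medians of 0.14 and -0.07 (383 to 960.0 CPM). In each of these lists 0 genes were called. Smooth muscle genes summed to 397 CPM in HC, 224.5 CPM in HHC and 10.19 to 115.5 CPM elsewhere, with 1 of 8 tested. In the other nuclei they summed to 1116 CPM in HC, 169 CPM in HHC and 58.7 to 384 CPM elsewhere. Immediate early genes summed to 151 to 449 CPM, with 2 of 18 tested. Genes of the proximal epididymis summed to 49.99 CPM in CC (3 UMIs) to 823 CPM in HH (18 UMIs of 2 genes). Of the 19 genes, 7 had no UMI in any library and 2 were tested, with 0 called. Their median log2 fold change was 0.38 for HFD and -5.48 for WL. In WL the 2 genes had an unadjusted p under 0.05 in edgeR.

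The 12 cell cycle genes summed to at most 47.1 CPM, and of the 10 sperm genes 0 were tested and their sum was at most 274 CPM in HH, which held 21875 UMIs. Mesothelial genes summed to 37.8 to 366 CPM, the highest in HH, against 269 to 747 CPM in other nuclei. Adipocyte genes, led by Ghr, summed to 6999 CPM in CC and 1371 to 4381 CPM elsewhere, below the other nuclei of every library (7033 to 20720 CPM). Interferon genes summed to 45.7 to 283 CPM, with 0 of 18 past the count filter, and inflammatory genes to 286 to 1038 CPM, with 3 of 19 tested and 0 called. Mitochondrial genes took 7.36% of epithelial UMIs in H and 6.69% in HH, 3.45% in HCH and 1.84% in CCH, against 0.787 to 1.12% in chow and WL libraries. In the other nuclei they took 0.532 to 1.71%. The higher mitochondrial shares were those of H, HH, HCH and CCH, the HFD libraries, and their part in the other values was not tested.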

How the data were processed

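Nuclei from epididymal adipose tissue of 9 pools of mice, 1 library per diet group, were analysed from the deposited UMI counts per gene and barcode. Per the labels and the study's methods, the authors made these counts with Cell Ranger 6.1.2 on the mm10 reference of 10x Genomics with intronic reads included, and used Seurat 4.1.0 downstream. Only the counts were used here, before any of the authors' doublet removal. Introns favour long genes, and free RNA was not subtracted. Total depth ran from 22599619 UMIs in CCC to 66615262 in HHC.

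Epithelial nuclei were selected by the marker rule given above, and the members and gene lists were chosen with earlier results of these data known. Diet states were taken from the labels (chow, HFD at collection, WL). Replicate numbers in a diet state follow sample order and pair nothing. Each library is 1 pool, so p-values measure the spread between libraries that also differ in age and length of feeding. Shares were compared by two-sided exact permutation tests. UMIs were summed per library over libraries with at least 20 epithelial nuclei and tested with edgeR 4.0.16 (quasi-likelihood, TMM, filterByExpr, Benjamini-Hochberg, adjusted p under 0.05), in R 4.3.3. DESeq2 1.42.0 was an alternative. Totals for scaling omitted Malat1 and genes of the mitochondrial genome. Nuclei were clustered with scanpy 1.11.5 and leidenalg 0.10.2 on 1500 variable genes, 20 principal components and 15 neighbours at resolution 0.5, without integration of libraries. Scrublet doublet calls were counted and removed only as an alternative. Intervals (Clopper-Pearson, Poisson, conditional binomial) and limits for a count of 0 (3 counts) cover counting error only. Of these steps, only the edgeR comparison of HFD with chow was tried on simulated counts.

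Genes named were those of the fixed lists with the highest level or lowest p, the 20 leading genes of all epithelial nuclei (at least 50 CPM on average, ranked by the lowest of the 9 ratios to other nuclei) and leading genes of clusters. Called genes of each contrast were to be named, but there were 0. Genes compared within clusters were picked after their values were seen. Alternatives were the number of marker genes asked for, the exclusion genes, gene limits, doublets, thinning, filters, sequencing set, leaving out libraries, scaling and clustering resolution. A few results are not reported here.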

Additional observations from a re-analysis of the deposited data

Results flagged for a closer look

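The 4 HFD libraries (H, HH, CCH and HCH) were examined for a library that stands far from the other 3 in 35 quantities, and 7 stood apart. Chance alone marks about 1 in 20 such groups, but Pax8, Abcb5 and Erbb3 are genes that chose the nuclei, so the count is not read against that rate. Pax8 was at 1133 CPM in CCH, against 581, 548.6 and 581.8 CPM in H, HH and HCH. Abcb5 was at 1257 CPM in HCH, against 0, 0 and 20.54 CPM in H, HH and CCH. Erbb3 was at 182.9 CPM in HH, from 4 UMIs in 5 nuclei, against 122.3, 126.2 and 125.1 CPM in H, CCH and HCH. The summed level of junction and keratin genes was lowest in HCH at 519.2 CPM, against 777.1 to 815.5 CPM in the other 3. Secretory genes of principal cells summed to 1551 CPM in HCH, against 417.9 to 601.6 CPM in the others, and HCH was the HFD library with 7 nuclei of the principal-like cluster. Macrophage genes summed to 231.9 CPM in CCH, against 1947, 1966 and 2177 CPM in H, HH and HCH. Mesothelial genes summed to 365.7 CPM in HH, which held 5 epithelial nuclei, against 68.81 to 112.1 CPM in the others.

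Barcodes above the limit of 3000 genes were left out of the comparisons, and 337 of them met the marker rule. The chow libraries C, CC and CCC held 115, 12 and 14 of them, the HFD libraries H, HH, CCH and HCH held 13, 5, 67 and 27, and the WL libraries HC and HHC held 55 and 29.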

How the results depend on the processing

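The share tests cannot reach 0.05 (smallest p 0.0571 and 0.2), so only their direction was compared. It held for HFD under the alternatives run. The WL difference in the share of epithelial nuclei changed sign with 3 or more marker genes, to -0.2479 percentage points, and the cause was not tested. Without the filter on low counts, which tested 19334 genes, edgeR called 34 genes for HFD and 259 for WL. DESeq2 called 29 for WL (5 higher and 24 lower). Leaving out 1 library at a time gave 0 genes for HFD throughout and 0 to 9 for WL, with 9 reached without HHC, all lower. Without HHC or HC the WL arm, and without C or CCC the chow arm, is 1 library, which is assumed to vary like the other groups. With 5 or more marker genes 4 libraries were left, 1 of them chow and 1 HFD, so its 0 calls say nothing about stability. The cause of these changes was not tested. Including CC and HH, or dropping the upper gene limit, both chosen after seeing the data, left 0 genes called in both contrasts. The 6 genes of fixed lists with the lowest p kept their sign under 14 alternatives, and 7 of these values passed the threshold, all under DESeq2 or without the filter on low counts. Their size moved, from -4.85 to -2.26 for Atp6v0a4, -3.48 to -1.40 for Slc12a2, -3.63 to -1.99 for Slc4a4 and 2.34 to 3.55 for Ctsb in WL, and from 3.82 to 5.99 for Lyz2 and -1.93 to -1.20 for Ppard on HFD. TMM scaling was not run for the pairs with HH or CC. The replicate numbers follow sample order and match no libraries. C and H, CC and HC, and CCC and HHC shared age and sequencing set, but no analysis paired on these was run. A fit blocked on age was not run. With 1 library per diet group and 5 to 151 epithelial nuclei in each, differences between single diet groups have no replicate check.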
